A study of Homo sapiens with 16 samples.

Results

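The transcription factor NRF2, encoded by NFE2L2, switches on genes that protect cells against oxidants and reactive chemicals. In unstressed cells the adaptor protein KEAP1 ties NRF2 to a ubiquitin ligase, which marks it for destruction. Oxidants and electrophiles modify KEAP1, so that NRF2 accumulates, pairs with a small MAF protein and binds antioxidant response elements near its targets. This control acts largely on the NRF2 protein, which was not measured here. The targets include the makers of glutathione, the cell's main small antioxidant, and enzymes that reduce thioredoxin, quinones and peroxides. Here 9 genes of this pathway, out of 62703 in the count table, were taken by symbol: NFE2L2 and KEAP1 themselves, GCLC and GCLM of glutathione synthesis, TXNRD1 and SRXN1 of the thioredoxin and peroxiredoxin system, the quinone reductase NQO1, the heme oxygenase HMOX1 and the glutathione peroxidase GPX2.

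Their messenger RNA was counted in spheroids of 3 human prostate cancer cell lines by BRB-seq, a 3′ tag method in which samples are barcoded at reverse transcription and pooled. LNCaP is androgen-dependent and enzalutamide-sensitive, 22Rv1 is androgen-responsive but enzalutamide-resistant, and PC3 is insensitive to this antiandrogen. All cells received 25 pmol of an siRNA pool, either against MED12, which belongs to the kinase module of Mediator (siMED12), or non-targeting (siCtrl), and were harvested after 3 days in 2D and 4 days as spheroids. The groups were LNCaP siCtrl (n = 3), LNCaP siMED12 (n = 3), 22Rv1 siCtrl (n = 3), 22Rv1 siMED12 (n = 2), PC3 siCtrl (n = 3) and PC3 siMED12 (n = 2), and replicates 1 and 3 make up both groups of 2. The study's methods speak of biological replicates for its experiments in general, and the labels do not say whether these replicates came from separate cultures, so that a p-value measures the spread between these libraries, which may be technical.

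The 16 libraries held 479118 to 993807 counts. Levels are given as CPM, that is counts relative to the library total after TMM scaling, and a library with 0 counts of a gene could have held up to 3 counts, or 3.15 to 6.22 CPM. Intervals and floors of this kind cover counting error only. The summed level of 5 markers of androgen-responsive lines was 5534 to 6256 CPM in LNCaP siCtrl, 438 to 471 CPM in 22Rv1 siCtrl and 88.3 to 135 CPM in PC3 siCtrl, and that of 5 markers of PC3 was 61.3 to 144, 88.5 to 100.3 and 1502 to 1595 CPM. After siMED12 the first sum was 3698 to 4745 CPM in LNCaP, below every siCtrl library. Of its markers KLK3 fell from a mean of 2473 to 1829 CPM and KLK2 from 1966 to 1056 CPM. TMPRSS2, FOLH1 and HOXB13 averaged 304, 791 and 370 CPM in siCtrl and 285, 775 and 389 CPM in siMED12. The second sum was 113 to 182 CPM in 22Rv1, above every siCtrl library. Its upper end was siMED12 replicate 3, in which genes of PC3 stood higher, as given below. The part of these shifts in the siMED12 effects was not tested. Of 5 stromal, blood and endothelial markers, 3 or 4 were at 0 in each siCtrl group. The others were COL1A1 and PECAM1. COL1A1 averaged 22.8 CPM in LNCaP siCtrl, 4.77 CPM in 22Rv1 siCtrl and 77.7 CPM in PC3 siCtrl. PECAM1 had 1 count in 22Rv1 siCtrl and 10 in PC3 siCtrl. MED12 itself had 5 to 22 counts per library, and its siMED12 effect, a log2 fold change, was -0.50 in LNCaP, -1.28 in 22Rv1 and -0.22 in PC3 (adjusted p = 0.878, 0.175 and 0.987, edgeR). So few counts cannot settle how far MED12 fell. The paper describes the knockdown as highly efficient in its spheroids, and in 2D for mRNA and protein. In 22Rv1 siMED12 replicate 3, genes otherwise counted only in PC3 stood at 5.68% of their PC3 level, against 0.512% to 1.5% in the other libraries of LNCaP and 22Rv1. Genes otherwise counted only in LNCaP stood at 4.66% of their LNCaP level in PC3 siMED12 replicate 3, against 0.59% to 1.73% in the other PC3 libraries, and genes of 22Rv1 at 2.62% in PC3 siCtrl replicate 3.

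Antioxidant response elements share the core TGACNNNGC. An extended core, TGACNNNGC followed by A, was looked for on both strands in the 300-base windows that RefSeq places around transcription starts (GRCh38.p14, 250 bases before to 50 after). Every gene but HMOX1 matched a window by symbol, with 11 windows for 8 genes. The extended core stood in 1 window each of GCLM, TXNRD1, GPX2 and KEAP1, that is 4 of 11 windows, against 1118 of 35116 windows (3.18%) over all genes. The shorter core, which every extended match contains, stood in 5 of the 11 windows and in 13.3% of all windows. The windows of NFE2L2, NQO1, GCLC and SRXN1 held no extended core, and sequence outside the windows was not searched. Genes with and without a match differed between lines, as given below. The 4 extended matches are shown because the response is named after this element. Each is written 5′ to 3′ on the strand of the gene, with the match in capitals, which is the reverse complement of the extended core in each case.
GCLM: ctacgatttcTGCTTAGTCAttgtcttcca
TXNRD1: agtggatttcTGCTTTGTCAttctgactct
GPX2: gacctgttttTGCTAAGTCAtcctggggat
KEAP1: cgcccggctcTGCTTAGTCAtggtgacctg
The GCLM stretch is chr1:93909446-93909475 (minus strand), and its match begins 35 bases before the start. The TXNRD1 stretch is chr12:104286919-104286948 (plus strand), 103 bases before an internal start of this gene. The GPX2 stretch is chr14:64942849-64942878 (minus strand), 123 bases before the start and outside the annotated gene. The KEAP1 stretch is chr19:10502784-10502813 (minus strand), 32 bases before an internal start of this gene. In Gencode release 44 the GCLM, TXNRD1 and KEAP1 stretches touch an untranslated exon of at least 1 transcript. GCLM and KEAP1 hold the same 10 letters, and binding of NRF2 at these sites was not measured.

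Between the lines, the control spheroids differed in most of these genes. PC3 had more NQO1, KEAP1 and GPX2 than both other lines, LNCaP had more HMOX1 than both, and 22Rv1 had the least NFE2L2 and GCLM. In the edgeR quasi-likelihood test across all 10566 tested genes, 3 of 7 members passed between 22Rv1 and LNCaP, all lower in 22Rv1. In the same test 3 of the 7 passed between PC3 and LNCaP (2 higher in PC3) and 6 between PC3 and 22Rv1 (5 higher in PC3). Lines differ widely at this depth, for 43.2%, 54.7% and 54.9% of all tested genes passed in those comparisons, so that such a share is near the background for the first and the second. The median log2 difference over the 7 genes was -0.59, -0.04 and 0.63, beside 0, 0.045 and 0.012 over all tested genes. GPX2 passed the filter on low counts only through PC3, where it was high, and is therefore left out of these counts and medians, and SRXN1 did not pass it. The 3 comparisons share the siCtrl groups and are not independent of each other.

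**Figure D1:**
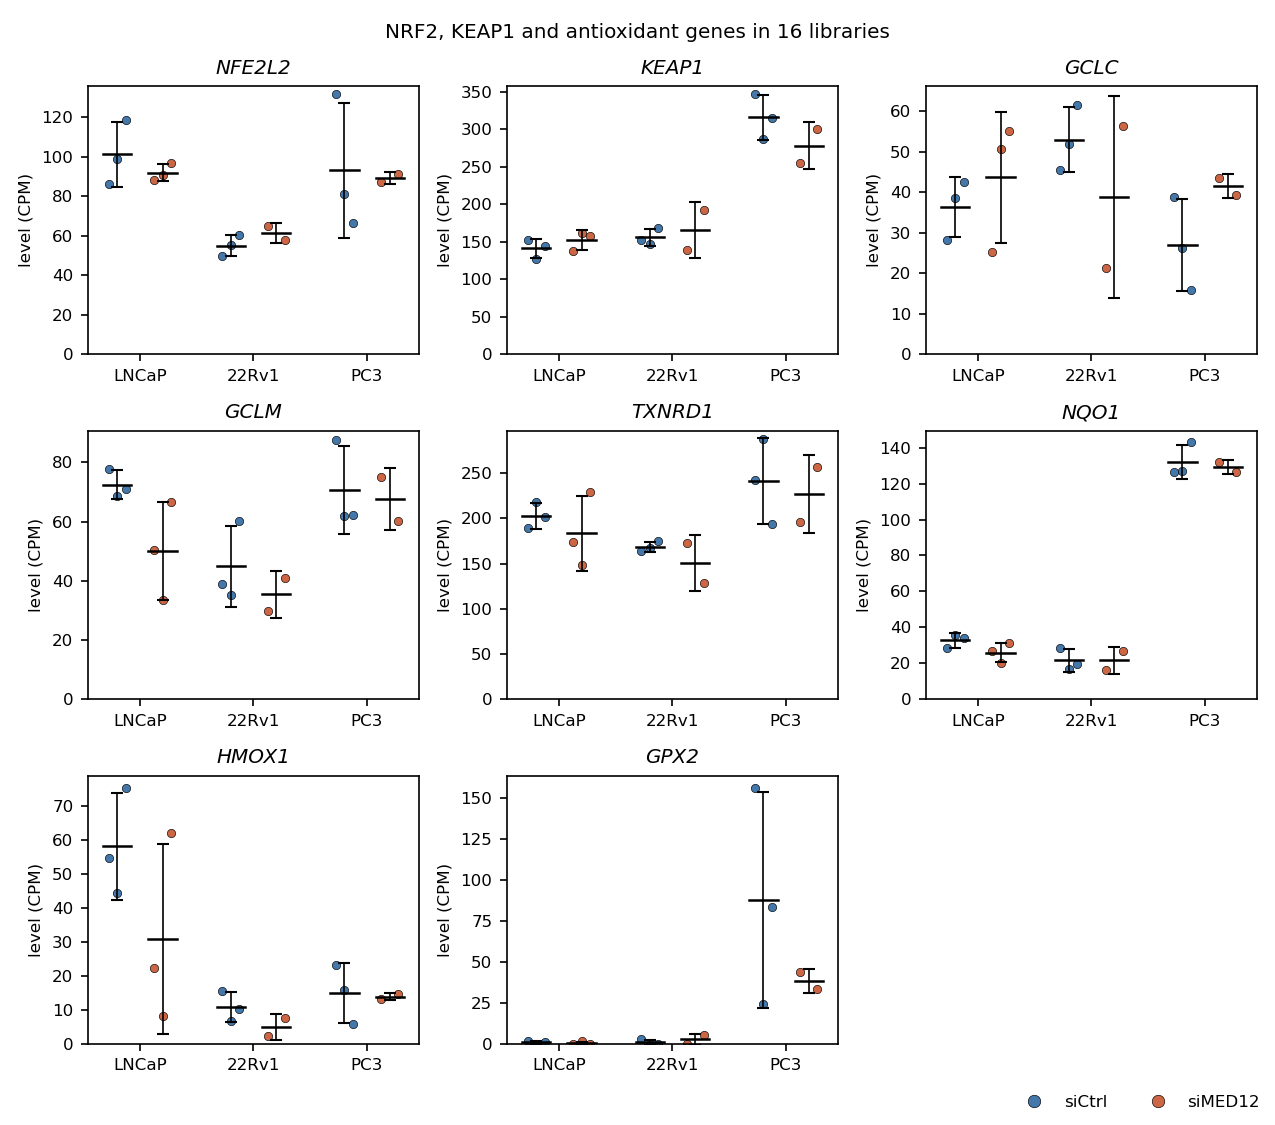
Level of the 8 genes with counts in each of the 16 libraries, in TMM-scaled CPM on a linear axis from 0, with siCtrl in blue and siMED12 in orange for each line; the horizontal bar is the group mean and the error bar 1 SD (n = 3 or 2). NQO1 and KEAP1 are high in all 5 PC3 libraries, GPX2 has 0 to 4 counts in every LNCaP and 22Rv1 library, and siCtrl and siMED12 libraries are intermixed in most panels.

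NFE2L2 (ENSG00000116044, GRCh38 chromosome 2, 177218667 to 177392756, minus strand) stood at 86.2, 98.8 and 119 CPM in LNCaP siCtrl replicates 1 to 3, at 49.5, 55.2 and 60.3 CPM in 22Rv1 and at 132, 81.0 and 66.5 CPM in PC3. All 3 22Rv1 libraries lay below every library of the other lines. The level in 22Rv1 was 1.86-fold lower than in LNCaP (log2 difference -0.90, SE 0.21, edgeR adjusted p = 0.00082). The level in PC3 was higher than in 22Rv1 by a log2 difference of 0.76 (SE 0.21, adjusted p = 0.0031), but without PC3 siCtrl replicate 1, the highest library, this was 0.44 (adjusted p = 0.080). LNCaP and PC3 overlapped, with a log2 difference of -0.14 (95% CI -0.53 to 0.25, adjusted p = 0.552). Without that same PC3 library the difference was -0.46 (adjusted p = 0.041; range 0.041 to 0.976 over the alternatives). On the same strand 13.6% of the exonic bases of NFE2L2 are shared with a long noncoding RNA that had at most 3 counts in a library.

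KEAP1 (ENSG00000079999, chromosome 19, 10486125 to 10503558, minus strand), the adaptor that holds NRF2 down, stood at 152, 127 and 144 CPM in LNCaP siCtrl, at 152, 147 and 168 CPM in 22Rv1 and at 347, 287 and 315 CPM in PC3. Every PC3 library was above every library of the other lines, which overlapped each other. PC3 was 2.23-fold higher than LNCaP (log2 difference 1.16, SE 0.14, adjusted p = 3.23e-08) and 2.02-fold higher than 22Rv1 (1.01, SE 0.14, adjusted p = 3.35e-07). Between 22Rv1 and LNCaP the log2 difference was 0.15 (95% CI -0.17 to 0.46, adjusted p = 0.475). PC3 thus had the highest mRNA level of the repressor, with an NFE2L2 level that overlapped that of LNCaP.

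Glutamate-cysteine ligase makes the first and rate-limiting product of glutathione synthesis from a catalytic subunit, GCLC, and a modifier subunit, GCLM. The subunits were ordered differently among the lines. GCLM (ENSG00000023909, chromosome 1, 93885199 to 93909456, minus strand) was at 77.9, 68.7 and 71.0 CPM in LNCaP siCtrl, at 39.0, 35.1 and 60.3 CPM in 22Rv1 and at 87.7, 62.0 and 62.1 CPM in PC3. GCLM was lower in 22Rv1 than in LNCaP (log2 difference -0.67, SE 0.24, adjusted p = 0.024) and higher in PC3 than in 22Rv1 (0.63, SE 0.24, adjusted p = 0.024), while PC3 and LNCaP differed by -0.04 (95% CI -0.48 to 0.40). Both GCLM calls rested on single libraries. That against LNCaP was lost without LNCaP siCtrl replicate 1 or 3 (adjusted p = 0.072 and 0.058) or 22Rv1 siCtrl replicate 1 or 2 (0.100 and 0.102). That against PC3 was lost without 22Rv1 siCtrl replicate 1 or 2 (0.104 and 0.107) or PC3 siCtrl replicate 1 (0.145). Both were also lost with DESeq2 (0.071 and 0.057).

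GCLC (ENSG00000001084, chromosome 6, 53497341 to 53616970, minus strand) was at 28.2, 38.7 and 42.4 CPM in LNCaP siCtrl, at 45.5, 51.8 and 61.6 CPM in 22Rv1 and at 38.7, 26.3 and 15.9 CPM in PC3. Here 22Rv1 was the highest line, with every library above those of LNCaP and PC3. PC3 was below 22Rv1 (log2 difference -0.96, SE 0.31, adjusted p = 0.010), but not without PC3 siCtrl replicate 3, the lowest library (-0.73, adjusted p = 0.065). The difference between 22Rv1 and LNCaP was 0.51 (95% CI -0.10 to 1.12, adjusted p = 0.173), and that between PC3 and LNCaP was -0.45 (95% CI -1.12 to 0.23, adjusted p = 0.262). Of the exonic bases of GCLC, 6.14% are shared on the same strand with a long noncoding RNA that had 0 counts in all libraries.

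TXNRD1 (ENSG00000198431, chromosome 12, 104215779 to 104350307, plus strand), the cytosolic thioredoxin reductase, was at 189, 218 and 201 CPM in LNCaP siCtrl, at 164, 167 and 175 CPM in 22Rv1 and at 242, 288 and 194 CPM in PC3. The 22Rv1 libraries were the lowest, and LNCaP and PC3 overlapped. Only PC3 against 22Rv1 passed the test for TXNRD1 (log2 difference 0.53, SE 0.16, adjusted p = 0.0072), and it did not without PC3 siCtrl replicate 2 (0.37, adjusted p = 0.082). SRXN1 (ENSG00000271303, chromosome 20, 646615 to 653200, minus strand), which restores overoxidized peroxiredoxins, had 0 counts in all 16 libraries. In Gencode release 44, 2292 of its 2528 exonic bases (90.7%) are shared on the same strand with a readthrough gene (ENSG00000270299), which also had 0 counts in every library. Reads that fit 2 genes can be dropped in counting, so a count of 0 here is not a measure of SRXN1 expression, and the part of this overlap was not tested.

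NQO1 (ENSG00000181019, chromosome 16, 69706996 to 69726668, minus strand), which reduces quinones with 2 electrons and is a standard readout of NRF2 activity, was at 28.2, 35.8 and 33.9 CPM in LNCaP siCtrl, at 28.6, 16.7 and 19.2 CPM in 22Rv1 and at 126, 127 and 143 CPM in PC3. The PC3 libraries were far above all others, and those of LNCaP and 22Rv1 overlapped. The level in PC3 was 3.99-fold that of LNCaP (log2 difference 2.00, SE 0.20, adjusted p = 4.18e-10) and 6.00-fold that of 22Rv1 (2.58, SE 0.22, adjusted p = 1.03e-11). Between 22Rv1 and LNCaP the NQO1 difference was -0.59 (SE 0.28, adjusted p = 0.089; range 0.037 to 0.247 over the alternatives). That difference passed the threshold with limma on the deposited values (0.049) and without 22Rv1 siCtrl replicate 1 (0.037).

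HMOX1 (ENSG00000100292, chromosome 22, 35380361 to 35394214, plus strand) encodes the inducible enzyme that opens the heme ring, releasing iron. It was at 54.7, 44.4 and 75.3 CPM in LNCaP siCtrl, at 15.6, 6.69 and 10.3 CPM in 22Rv1 and at 23.2, 15.8 and 5.78 CPM in PC3. LNCaP was above the other lines in every library, and 22Rv1 and PC3 overlapped. The HMOX1 level was 5.26-fold lower in 22Rv1 than in LNCaP (log2 difference -2.40, SE 0.45, adjusted p = 6.66e-05) and 3.86-fold lower in PC3 (-1.95, SE 0.41, adjusted p = 0.00017). PC3 and 22Rv1 differed by 0.45 (95% CI -0.76 to 1.65, adjusted p = 0.542), with 4 to 18 counts per library.

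GPX2 (ENSG00000176153, chromosome 14, 64939152 to 64942746, minus strand), a glutathione peroxidase of epithelial cells, was counted 121, 23 and 58 times in PC3 siCtrl (156, 24.2 and 83.8 CPM), against 1, 0 and 1 counts in LNCaP siCtrl and 2, 0 and 0 in 22Rv1 siCtrl. The PC3 libraries did not overlap the others but differed widely among themselves. Over pooled counts the ratio of PC3 to LNCaP was 93.8 (95% CI 25.6 to 780) and that of PC3 to 22Rv1 was 89.6 (95% CI 24.5 to 745), intervals for counting error only. No test of GPX2 between lines is given, since it was among the tested genes only through its level in PC3. The counts of GPX2 in LNCaP and 22Rv1 are at or below the 3-count floor of a library in all but 1 case, the 4 counts in 22Rv1 siMED12 replicate 3, the library with the higher level of PC3 genes.

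**Figure D2:**
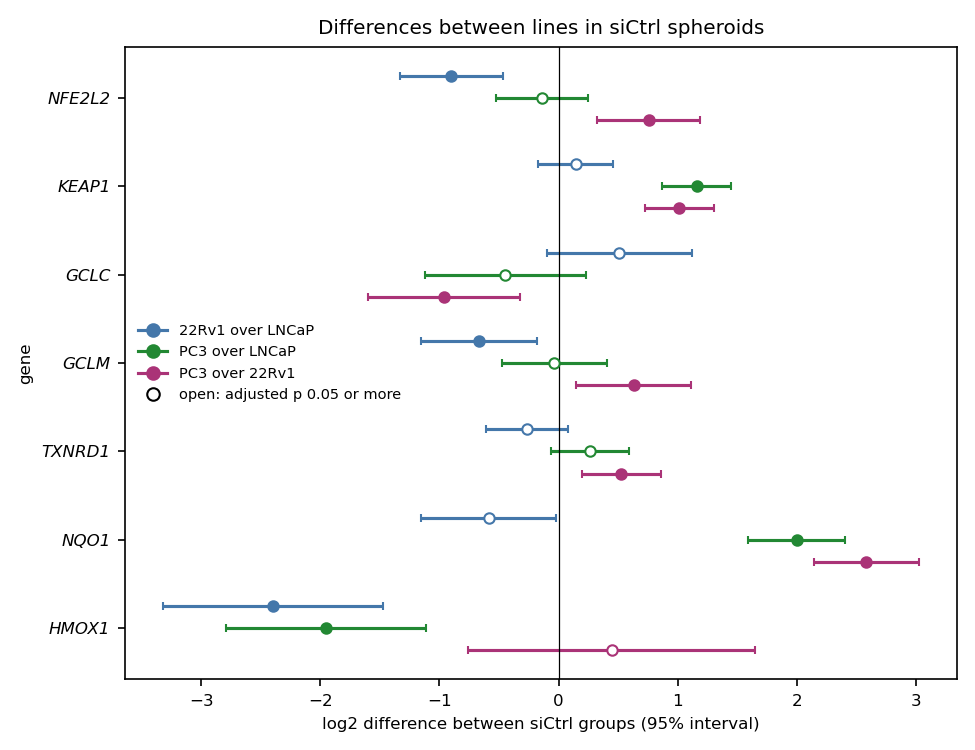
Log2 difference between the siCtrl groups of each pair of lines for 7 genes (points) with 95% intervals (bars); filled points passed an adjusted p of 0.05 in the edgeR test and open points did not. GPX2 is left out because it was near 0 in LNCaP and 22Rv1. NQO1 lies at 2.00 and 2.58 for PC3 over LNCaP and 22Rv1, and HMOX1 at -2.40 and -1.95 for 22Rv1 and PC3 over LNCaP.

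The second question was whether siMED12 moved these genes within a line. None of the 8 tested members passed the threshold in LNCaP, 22Rv1 or PC3, nor for the mean effect over the lines (edgeR). Over all tested genes 0.416% passed in LNCaP, 1.83% in 22Rv1, 0% in PC3 and 0.284% for the mean, so 0 calls among 8 genes is near the background in each case. An unadjusted p under 0.05 was found for 2 members in LNCaP (HMOX1 and GCLM), for 0 in 22Rv1 and for 1 in PC3 (GPX2), beside 7.34%, 11.7% and 4.98% of all tested genes. The smallest adjusted p was 0.543, 0.594 and 0.892 in those lines and 0.587 for the mean. Without GPX2, which had too few counts in LNCaP and 22Rv1, the log2 effect was negative for 5, 5 and 6 of 7 genes, with medians of -0.16, -0.15 and -0.07 beside -0.0038, 0.0061 and -0.038 over all tested genes. The siCtrl and siMED12 libraries did not overlap for GCLM in LNCaP and for GCLC in PC3, 1 of 8 in each, and for 0 of 8 in 22Rv1. Over all tested genes the groups were apart for 12.6% in LNCaP, 26.6% in 22Rv1 and 20.7% in PC3.

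**Figure D3:**
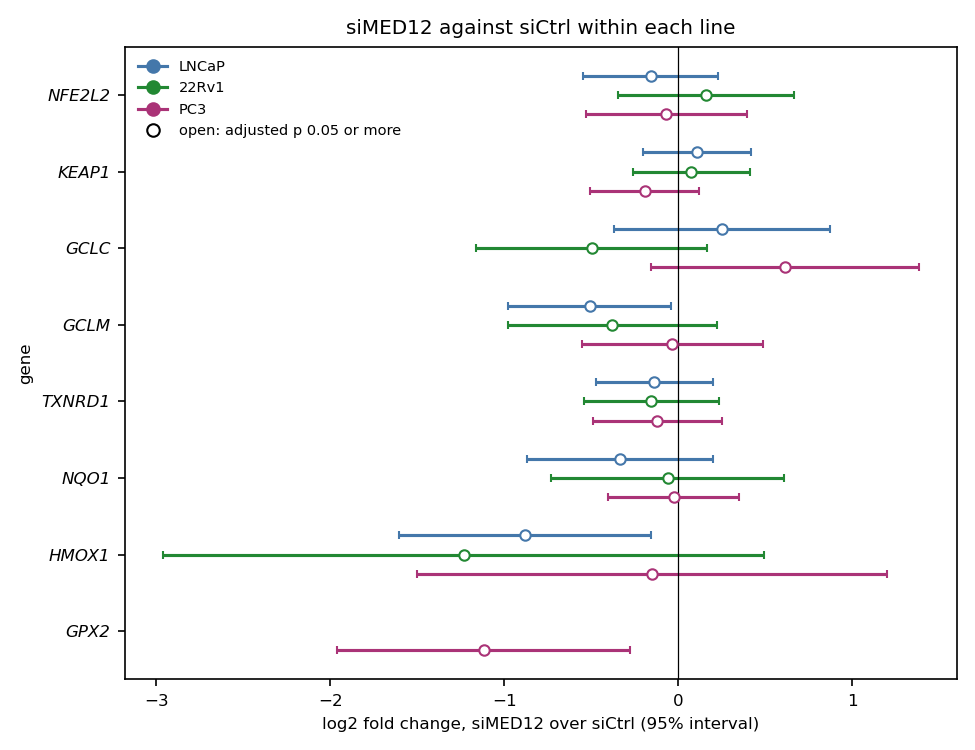
Log2 fold change of siMED12 over siCtrl within each line (points) with 95% intervals (bars); open points did not pass an adjusted p of 0.05 in the edgeR test, and GPX2 is drawn for PC3 only. All points are open, and the intervals of KEAP1, NFE2L2, TXNRD1 and NQO1 span 0 in the 3 lines.

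For the regulators the estimated effects were small, and the intervals were wider for NFE2L2 than for KEAP1 in each line. After siMED12, NFE2L2 was at 88.1, 90.7 and 96.6 CPM in LNCaP, 64.7 and 57.7 CPM in 22Rv1, and 87.0 and 91.2 CPM in PC3, overlapping siCtrl in LNCaP and PC3 and partly above it in 22Rv1. Its log2 fold change was -0.16 (95% CI -0.55 to 0.23) in LNCaP, 0.16 (-0.35 to 0.66) in 22Rv1 and -0.07 (-0.53 to 0.40) in PC3. KEAP1 was at 137, 161 and 157 CPM in LNCaP, 139 and 192 CPM in 22Rv1, and 256 and 301 CPM in PC3, and it overlapped siCtrl in each line. Its log2 fold change was 0.11 (95% CI -0.20 to 0.42), 0.08 (-0.26 to 0.41) and -0.19 (-0.50 to 0.12). A change of KEAP1 by a factor of 2 in either direction lies outside these 3 intervals.

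The target genes NQO1 and TXNRD1 also overlapped siCtrl in every line. NQO1 was at 26.6, 20.02 and 31.0 CPM in LNCaP siMED12, 15.9 and 26.9 CPM in 22Rv1, and 132 and 127 CPM in PC3. Its log2 fold change was -0.33 (95% CI -0.87 to 0.20), -0.06 (-0.73 to 0.61) and -0.03 (-0.40 to 0.35). TXNRD1 was at 173, 148 and 229 CPM in LNCaP, 173 and 128 CPM in 22Rv1, and 197 and 257 CPM in PC3. Its log2 fold change was -0.14 (95% CI -0.47 to 0.20), -0.15 (-0.54 to 0.23) and -0.12 (-0.49 to 0.25). With either siRNA pool, every PC3 library held more NQO1 than any library of the other lines.

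GCLM was at 50.4, 33.4 and 66.7 CPM in LNCaP siMED12, each below the lowest siCtrl library at 68.7 CPM. The log2 fold change of GCLM was -0.51 (SE 0.23, unadjusted p = 0.034, adjusted p = 0.632), and it ranged from -0.77 without siMED12 replicate 3 to -0.29 without siMED12 replicate 2. In 22Rv1 GCLM was at 29.7 and 41.0 CPM (log2 fold change -0.38, 95% CI -0.98 to 0.22) and in PC3 at 75.2 and 60.1 CPM (-0.03, 95% CI -0.55 to 0.49), overlapping siCtrl in both. The catalytic subunit GCLC spread more widely. It was at 25.2, 50.7 and 55.2 CPM in LNCaP (log2 fold change 0.25, 95% CI -0.37 to 0.87), at 21.2 and 56.4 CPM in 22Rv1 (-0.50, -1.16 to 0.17) and at 43.5 and 39.4 CPM in PC3 (0.62, -0.15 to 1.39). Both PC3 siMED12 libraries were above the 3 siCtrl libraries, while in 22Rv1 siMED12 replicate 1 was below the siCtrl range and replicate 3 within it.

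HMOX1 had the lowest log2 fold change of the members in LNCaP, where its siMED12 libraries were at 22.4, 8.01 and 62.1 CPM. Replicates 1 and 2 were below every siCtrl library and replicate 3 was within their range. The log2 fold change was -0.88 (SE 0.36, unadjusted p = 0.019, adjusted p = 0.543). It was -1.95 without siMED12 replicate 3, which passed the threshold (adjusted p = 0.012), and -0.44 without siMED12 replicate 2 (adjusted p = 0.985), the ends of its range over the alternatives, so that a single library decided this value. In 22Rv1 HMOX1 had 2 and 6 counts in siMED12 (2.12 and 7.70 CPM, log2 fold change -1.23, 95% CI -2.96 to 0.50), and in PC3 it was at 13.2 and 14.5 CPM (-0.15, 95% CI -1.5 to 1.2). No change of HMOX1 was detected in these lines, and the intervals are wide.

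GPX2 could be compared only in PC3, where its siMED12 libraries lay within the siCtrl range at 43.5 and 33.2 CPM. Its log2 fold change in PC3 was -1.12 (SE 0.42, unadjusted p = 0.010, adjusted p = 0.892). The siCtrl libraries ran from 24.2 to 156 CPM, and without PC3 siCtrl replicate 2, the lowest, the value was -1.62 and passed the threshold (adjusted p = 0.031). It also passed with the replicate block (-1.67, adjusted p = 0.0031, the lowest over the alternatives, whose highest was 1). In that block PC3 siCtrl replicate 2 has no partner and drops out of the effect, so both results set aside the same library. Without PC3 siCtrl replicate 1, the highest, the log2 fold change was -0.36. In siMED12 libraries of LNCaP GPX2 had 0, 1 and 0 counts, and in those of 22Rv1 it had 0 and 4.

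The siMED12 effects were also compared between the lines. No member passed for any pair of lines, beside 0.189% of all tested genes for 22Rv1 against LNCaP, 0.0284% for PC3 against LNCaP and 0.0946% for PC3 against 22Rv1. The single unadjusted p under 0.05 was that of GCLC, for which the effect in PC3 exceeded that in 22Rv1 by 1.11 on the log2 scale (SE 0.50, unadjusted p = 0.033, edgeR adjusted p = 0.501). For that pair of lines 9.16% of all tested genes had an unadjusted p under 0.05.

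A wider set of 73 genes with roles in the same chemistry was then examined, in 7 lists. These were drawn up from general knowledge, but with earlier results of these data known. Shares of the lists past the threshold are therefore a description. Of the 73 genes, 65 were tested. The siMED12 effect passed the threshold for 4 in 22Rv1 and for 0 in LNCaP, 0 in PC3 and 0 for the mean over the lines. The 4 were 6.15% of the genes tested from the lists, beside the 1.83% over all genes given above. Of these, CAT, the peroxisomal catalase, IDH1, which makes cytosolic NADPH, and MGST2, a microsomal glutathione transferase, rose, and SQSTM1, whose product p62 binds KEAP1 and directs it to autophagy, fell. The median log2 effect over the 65 was -0.034, 0.044 and -0.039 in LNCaP, 22Rv1 and PC3.

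In 22Rv1 CAT was at 122, 100.3 and 78.3 CPM in siCtrl and at 198 and 162 CPM in siMED12, which was 1.80-fold higher (log2 fold change 0.85, SE 0.18, edgeR adjusted p = 0.0082). IDH1 was at 58.6, 70.2 and 78.3 CPM in siCtrl and at 136 and 122 CPM in siMED12, 1.87-fold higher (0.90, SE 0.19, adjusted p = 0.0079). MGST2 was at 52.1, 65.2 and 48.8 CPM in siCtrl and at 122 and 101 CPM in siMED12, 2.05-fold higher (1.03, SE 0.20, adjusted p = 0.0028). The groups did not overlap for these 3 genes, which was also so for 26.6% of all tested genes in 22Rv1. SQSTM1 was at 2139, 2164 and 2933 CPM in siCtrl and at 1689 and 1708 CPM in siMED12, 1.42-fold lower (-0.51, SE 0.13, adjusted p = 0.041). Without 22Rv1 siMED12 replicate 1 none of the 4 passed (adjusted p = 0.242 for CAT, 0.15 for IDH1, 0.118 for MGST2 and 0.277 for SQSTM1). Further, CAT did not pass without 22Rv1 siCtrl replicate 3 (0.071) and IDH1 not without siCtrl replicate 1 (0.053). SQSTM1 was lost without siCtrl replicate 3 (0.265), where its value was -0.35, and without siMED12 replicate 3 (0.184). It also did not pass with DESeq2 (0.072), with limma (0.095), with the legacy edgeR test (0.0505) or after subtraction of counts carried over from other lines (0.084).

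**Figure D4:**
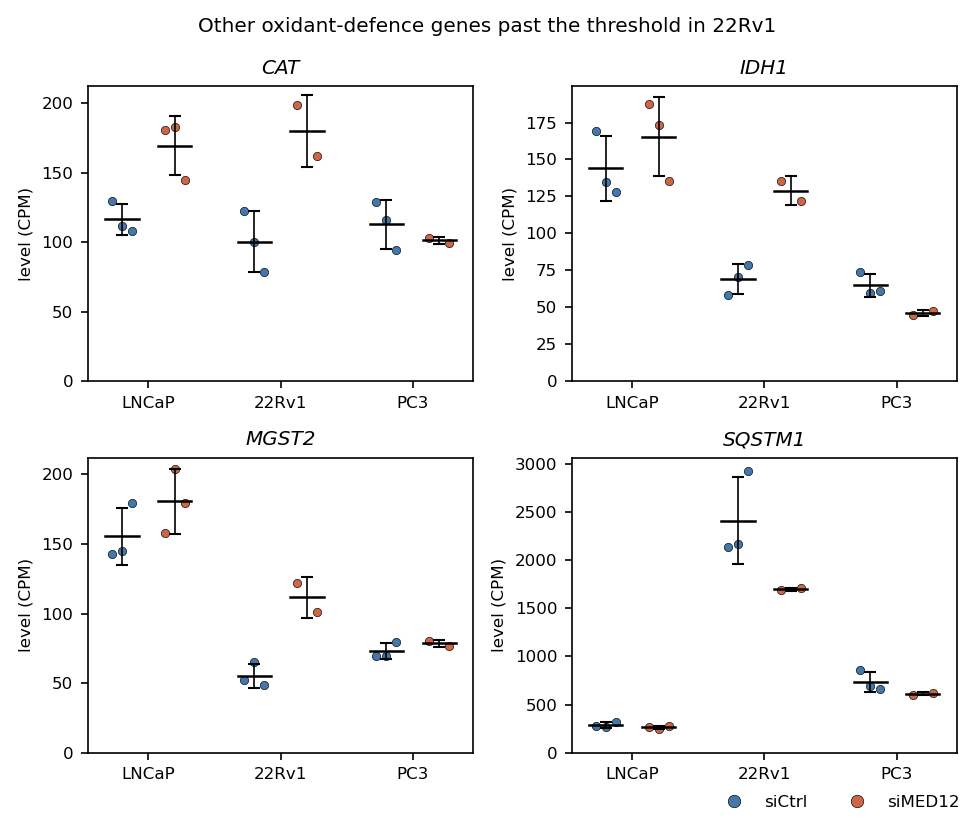
Level of CAT, IDH1, MGST2 and SQSTM1 in each of the 16 libraries, in TMM-scaled CPM on linear axes from 0, with siCtrl in blue and siMED12 in orange; the horizontal bar is the group mean and the error bar 1 SD (n = 3 or 2). In 22Rv1 the siMED12 libraries of CAT, IDH1 and MGST2 are above all siCtrl libraries and those of SQSTM1 below.

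In the other lines the same 4 genes gave mixed values. CAT was at 129, 112 and 108 CPM in LNCaP siCtrl and at 180.4, 183 and 145 CPM in siMED12, without overlap (log2 fold change 0.55, SE 0.17, adjusted p = 0.231). The groups were likewise apart for 12.6% of all tested genes in LNCaP. In PC3 the value of CAT was -0.16 (SE 0.20). For IDH1 the log2 fold change was 0.21 (SE 0.16) in LNCaP and -0.49 (SE 0.25) in PC3, for MGST2 it was 0.20 (SE 0.15) and 0.12 (SE 0.21), and for SQSTM1 it was -0.13 (SE 0.14) and -0.27 (SE 0.14). The effects in 22Rv1 did not differ from those in LNCaP at the threshold (adjusted p = 0.817 for CAT, 0.403 for IDH1, 0.279 for MGST2 and 0.633 for SQSTM1) or from those in PC3 (0.141, 0.064, 0.261 and 0.764).

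The LNCaP libraries deviated together by replicate number, and pairing them by number changed 3 calls in that line among the listed genes. With this replicate block CAT (log2 fold change 0.54, adjusted p = 0.046), ME1 (-0.88, adjusted p = 0.0081) and FTH1 (-0.49, adjusted p = 0.0081) passed in LNCaP, whereas the count of members past the threshold stayed at 0. ME1, the cytosolic malic enzyme that makes NADPH, was at 108, 105 and 85.9 CPM in LNCaP siCtrl and at 74.1, 37.4 and 51.7 CPM in siMED12. FTH1, the ferritin heavy chain that stores iron, was at 1200, 1164 and 1274 CPM in siCtrl and at 829, 802 and 963 CPM in siMED12. Neither overlapped between the groups, which was also so for 12.6% of all tested genes in LNCaP. Unpaired, the adjusted p of ME1 and FTH1 was 0.105 and 0.145. Over all tested genes the block raised the count in LNCaP from 44 to 117.

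Between the control groups the listed genes differed widely as well. Of the 65, 15 were higher and 20 lower in 22Rv1 than in LNCaP, 31 higher and 16 lower in PC3 than in LNCaP, and 31 higher and 14 lower in PC3 than in 22Rv1. These are 53.8%, 72.3% and 69.2% of the genes tested from the lists, beside 43.2%, 54.7% and 54.9% of all tested genes. Genes such as ABCC3 and GSTP1, which like GPX2 passed the filter on low counts only through PC3, are kept in these counts. Their calls between PC3 and the other lines follow in part from that filter. By list, all 10 thioredoxin and peroxiredoxin genes passed between PC3 and LNCaP, 4 higher and 6 lower in PC3. Of the same 10, 9 passed between PC3 and 22Rv1 but only 3 between 22Rv1 and LNCaP. All 6 NADPH genes passed between 22Rv1 and LNCaP, 2 higher and 4 lower in 22Rv1. Of the same 6, 3 passed between PC3 and LNCaP and 4 between PC3 and 22Rv1. Among the 20 tested genes of conjugation, reduction and export, 11 were higher and 4 lower in PC3 than in LNCaP, and 12 higher and 2 lower than in 22Rv1. The regulators of NRF2 passed in 3, 6 and 3 of 10 cases, below the share of all tested genes in the first and the third comparison. In the same order, glutathione supply passed in 4, 4 and 5 of 5 cases. Peroxide and superoxide removal passed in 4, 3 and 5 of 7, and heme and iron handling in 4, 6 and 5 of 7.

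Among the named genes with the widest differences, several conjugate or export. GSTP1, the glutathione transferase P1, was at 666 ± 26.6 CPM (SD, n = 3) in PC3 siCtrl against 1 to 3 counts in each LNCaP library and 1 to 5 in each 22Rv1 library. The exporter ABCC3 had 20 to 39 counts in PC3 siCtrl and 0 in all siCtrl libraries of the other lines. The exporter ABCC4 was at 165 ± 28.3 CPM in LNCaP, 19.0 ± 6.35 CPM in 22Rv1 and 31.5 ± 8.60 CPM in PC3. MGST1 was at 515 ± 19.9 CPM in LNCaP, 87.5 ± 19.8 CPM in 22Rv1 and 717 ± 68.4 CPM in PC3, and GSTM4 had 1 count over the 3 LNCaP libraries and 61 over those of 22Rv1.

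Others differed in heme and peroxide handling. FECH, which inserts iron into heme, was at 219 ± 27.9 CPM in LNCaP siCtrl, 167 ± 27.3 CPM in 22Rv1 and 39.3 ± 9.35 CPM in PC3. GPX4, which reduces lipid peroxides, was at 2014 ± 97.1 CPM in 22Rv1 against 484 ± 50.1 CPM in LNCaP and 497 ± 13.2 CPM in PC3, and GPX8 had 0 counts in 22Rv1 siCtrl and 26 to 40 in PC3. SQSTM1 was at 2412 ± 451 CPM in 22Rv1 siCtrl, 289 ± 29.0 CPM in LNCaP and 737 ± 105 CPM in PC3, a log2 difference of 3.06 (SE 0.13) between 22Rv1 and LNCaP. The gene for the p62 partner of KEAP1 was highest in the line with the lowest NFE2L2 level, the values being a description of 3 lines.

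The pattern of NQO1 over the 16 libraries was followed most closely by WWTR1 (Pearson r = 0.990), RPS24 (0.988) and ADK (0.984) among the 6719 tested genes whose average over all libraries reached 20 CPM. The points share lines and depth, and these coefficients describe the contrast of PC3 with the other lines. WWTR1, a coactivator of the Hippo pathway, was at 192 CPM in PC3 siCtrl, 21.0 CPM in LNCaP and 10.7 CPM in 22Rv1.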

How the data were processed

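Spheroid RNA of LNCaP, 22Rv1 and PC3 cells was sequenced by BRB-seq, and all 16 libraries were used. The authors used STARsolo for alignment and counting, on GRCh38.p13 with Gencode release 43. The collapse of molecular identifiers and the strand setting are not given in the sources used here. The authors deposited raw counts of 62703 genes and log2 CPM made from them with edgeR. Recomputing these from the counts gave the same 10566 genes and values. Totals of 479118 to 993807 counts make genes under about 20 CPM imprecise. Gene coordinates come from Gencode release 44 (GRCh38), and promoter windows from RefSeq (GRCh38.p14).

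Counts were tested by quasi-likelihood F tests in edgeR 4.0.16 under R 4.3.3 (non-legacy dispersions, TMM, filterByExpr with a minimum count of 10 and a total of 15), with 1 mean for each of 6 groups. All tests are 2-sided, and p-values were adjusted by Benjamini-Hochberg over the 10566 tested genes of a contrast, with a threshold of 0.05. The SE is the log2 fold change divided by the square root of F. edgeR put the common coefficient of biological variation at 0.125. The procedure was tested on simulated counts. No 2 replicates agreed within counting noise. Intervals of pooled count ratios are exact, at 95%.

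Alternatives were scaling by relative log expression, DESeq2 1.42.0, limma 3.58.1 on the deposited log2 CPM, all genes with at least 1 count, a replicate block, subtraction of counts carried over from other lines, leaving out each library and, added after seeing the data, the legacy edgeR test. Same-numbered LNCaP libraries deviated together (r = 0.177, 0.132 and 0.135), which comes from the data, not from the labels. Named besides the members were listed genes past the threshold for siMED12, the 2 highest and 2 lowest per siCtrl contrast that averaged 20 CPM or more in a group, and the 3 genes most like NQO1. ME1 and FTH1 were added after their values were seen. The members and lists were chosen with earlier results of these data known.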

Additional observations from a re-analysis of the deposited data

How the results depend on the processing

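The members past the threshold in the siCtrl comparisons and for the mean siMED12 effect stayed within 1.5 times the counts given under all alternatives. Leaving out 1 library gave 0 to 1 members past the threshold in LNCaP (HMOX1 without siMED12 replicate 3) and 0 to 1 in PC3 (GPX2 without siCtrl replicate 2). Of all 10566 tested genes, 49 passed in LNCaP without that library, against 44 with it. In PC3 3 passed without siCtrl replicate 2, against 0 with it. Same-numbered libraries of 22Rv1 and PC3 form only 2 pairs per line (r = 0.190 and 0.253 in 22Rv1, 0.117 and 0.079 in PC3), and the labels give no other ground for pairing them. In these lines siCtrl replicate 2 has no partner, so the block drops it from the siMED12 effect. With the replicate block 1 member, GPX2, passed in PC3 (-1.67), where 20 of all 10566 tested genes passed, against 0 without the block. The log2 fold change of TXNRD1 in PC3 turned to 0.029 with the block, and no other member's call changed. With limma that of HMOX1 in PC3 turned to 0.053. Leaving out 1 library also turned the sign of the following log2 values, none of them past the threshold in the test as reported. In LNCaP that of NFE2L2 ranged from -0.23 to 0.00092. In 22Rv1 that of GCLC ranged from -1.32 to 0.088, of TXNRD1 from -0.39 to 0.036, of NQO1 from -0.45 to 0.30 and of KEAP1 from -0.17 to 0.30. In PC3 that of GCLM ranged from -0.22 to 0.15, of NFE2L2 from -0.24 to 0.25, of TXNRD1 from -0.31 to 0.091, of NQO1 from -0.054 to 0.030 and of HMOX1 from -0.48 to 0.25. Between PC3 and LNCaP siCtrl that of GCLM ranged from -0.22 to 0.061 and of NFE2L2 from -0.46 to 0.032. The cause was not tested. The number of listed genes past the threshold for siMED12 in 22Rv1 was 2 to 6 under the alternatives other than leaving out 22Rv1 siMED12 replicate 1, where GSTP1 alone passed, with 27 counts in the remaining library, the one with the higher level of PC3 genes. GSTA4 and TKT were added in 22Rv1 by the replicate block. For the mean over the lines the number of listed genes was 4 with the replicate block (CAT, FTH1, MGST2 and SQSTM1) and 3 among all genes with at least 1 count. Without LNCaP siMED12 replicate 1 it was 1. In LNCaP it was 3 with the replicate block, 2 among all genes with at least 1 count and 1 without LNCaP siMED12 replicate 1. Depth limits HMOX1 in 22Rv1 and PC3 and GPX2 outside PC3, with under 20 counts in a library. Other members also had libraries under 20 counts. NQO1 had 10 to 22 counts in 22Rv1 siCtrl and 15 to 27 in LNCaP siMED12. GCLC had 11 to 30 in PC3 siCtrl and 17 to 40 in LNCaP siCtrl, and HMOX1 had 6 to 54 in LNCaP siMED12.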
